A study of Homo sapiens with 32 samples.

Results

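The immediate early genes of the AP-1 and EGR families were examined in RNA-seq of RH4, an established cell line from a human alveolar rhabdomyosarcoma (a muscle-type cancer). Their rows were taken by gene symbol from the table of each library, and all 10 were found among 18980 coding genes: *JUN*, *JUNB*, *JUND*, *FOS*, *FOSB*, *FOSL1*, *FOSL2*, *EGR1*, *EGR3* and *IER2*. The study treated the cells with inhibitors or degraders of the acetyltransferases CBP and p300. The 16 treated libraries came from A485, dCBP, IHK-44 and JQAD, each given at 1 uM and at 100 nM and collected at 2 h and at 6 h. The 4 control libraries were DMSO at 2 h and 6 h and NT, an abbreviation left unexplained there, at 2 h and 6 h. A485 is known as an inhibitor of the acetyltransferase activity of CBP and p300, and the labels do not describe the other 3 compounds. Every condition had 1 library of 1 line, so the 4 libraries of a compound stood in for replicates, and the p-values measure the spread among libraries of differing dose and time.

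AP-1 is a transcription factor made of a pair of leucine zipper proteins, usually a JUN protein with a FOS protein, that binds a short palindrome in enhancers and promoters. EGR1 and EGR3 are zinc finger factors that bind GC-rich DNA. Most of these genes are called immediate early because growth factors or stress raise their transcription within minutes without new protein synthesis, through serum response factor with its ETS partners at CArG boxes and through CREB-type factors at cAMP response elements (CREs). CBP is named for binding CREB, which it does once CREB is phosphorylated, and CBP and p300 also bind JUN and FOS proteins.

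Coding genes received between 13466631 and 16799327 estimated counts per library, and no pair of libraries had identical counts. Levels are given as CPM (counts scaled to an equal coding total in each library), on which 1 count was worth 0.0595 to 0.0743. All 8 markers of this line (among them *MYOD1*, *MYOG* and *DES*) were present, and their summed level was 2990 to 3234 CPM in controls, 1585 to 2521 CPM with dCBP and 1524 to 2622 CPM with IHK-44. Of 9 markers of other cell types, *EPCAM* and *KRT14* were at 0 in every library, and the 9 together reached 2.13 to 3.76 CPM in controls and 2.30 to 3.91 CPM with dCBP or IHK-44. Coding genes held 39.3 to 44.5% of all TPM in controls and 37.9 to 45.5% with JQAD. Their share was 27.9 to 35.4% with dCBP, 31.2 to 34.6% with IHK-44 and 43.0 to 53.9% with A485. The TPM of these genes thus also depends on rows not listed. CPM is scaled to the coding total and does not show this difference between compounds. In bulk RNA, fewer cells with a transcript and less of it per cell cannot be told apart.

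The sequence before the start of 4 of the genes is shown because these genes moved in opposite directions. RefSeq promoters (GRCh38.p14) were matched for 8 of the 10 genes, as the 250 bases before the transcription start. *EGR3* and *FOSL1* had no entry. The stretches are chr1:58784048-58784297 (minus strand) for *JUN*, chr2:28392608-28392857 (plus) for *FOSL2*, chr5:138465229-138465478 (plus) for *EGR1* and chr14:75278578-75278827 (plus) for *FOS*, each 5′ to 3′. Capitals mark the CRE-type letters TGACNTCA in *JUN*, the CRE core TGACG on either strand in *FOSL2*, *EGR1* and *FOS*, and also the CArG boxes in *EGR1*. The CRE core of *JUN*, at positions -123 to -119, is left in lower case.
JUN: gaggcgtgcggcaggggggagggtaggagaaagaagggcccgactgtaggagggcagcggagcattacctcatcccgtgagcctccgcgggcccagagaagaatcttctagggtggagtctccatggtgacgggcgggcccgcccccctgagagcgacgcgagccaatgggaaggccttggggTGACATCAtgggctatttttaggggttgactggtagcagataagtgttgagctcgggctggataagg
FOSL2: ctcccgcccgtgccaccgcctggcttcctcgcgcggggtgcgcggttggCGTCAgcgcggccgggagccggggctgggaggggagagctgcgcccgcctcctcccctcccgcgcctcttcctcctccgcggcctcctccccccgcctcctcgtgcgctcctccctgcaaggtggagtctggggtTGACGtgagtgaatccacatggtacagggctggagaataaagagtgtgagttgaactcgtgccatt
EGR1: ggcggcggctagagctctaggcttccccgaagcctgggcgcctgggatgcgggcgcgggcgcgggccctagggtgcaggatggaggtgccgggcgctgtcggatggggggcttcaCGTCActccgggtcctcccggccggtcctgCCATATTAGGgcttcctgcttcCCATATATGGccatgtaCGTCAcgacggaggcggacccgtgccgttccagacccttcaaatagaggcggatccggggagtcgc
FOS: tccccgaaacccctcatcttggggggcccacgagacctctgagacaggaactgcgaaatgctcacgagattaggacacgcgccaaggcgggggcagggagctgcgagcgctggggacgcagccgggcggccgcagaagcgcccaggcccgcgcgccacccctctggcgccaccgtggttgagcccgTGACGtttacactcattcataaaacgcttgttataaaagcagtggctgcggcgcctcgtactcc

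The CRE core TGACG lay in the promoters of all 8 genes, against 21.2% of 35116 RefSeq promoters of this length. The CRE-type letters TGACNTCA, found in 6.87% of promoters, were in *JUN* at positions -67 to -60 from the start and in *JUND*, where they overlap matches to the core. A CArG box, found in 1.16% of promoters, was in *EGR1* alone of the 8, at positions -105 to -96 and -83 to -74. The AP-1 site TGANTCA (6.57% of promoters) was in none of the 8. GCGNGGGCG, the letters bound by EGR proteins (8.41%), was in *EGR1*, the ETS letters CCGGAA (14.5%) in *IER2* and *FOSB*, and CCAAT (32% of promoters) in *JUN*, *JUNB* and *JUND*. All motifs were searched on both strands, and a match describes letters and does not show a bound site. The promoters held 14 CpG dinucleotides in *JUN*, 19 in *FOSB*, 22 in *IER2*, 24 in *FOSL2*, 25 in *EGR1* and in *FOS*, 27 in *JUNB* and 40 in *JUND*, against a median of 11 over all promoters.

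**Figure D1:**
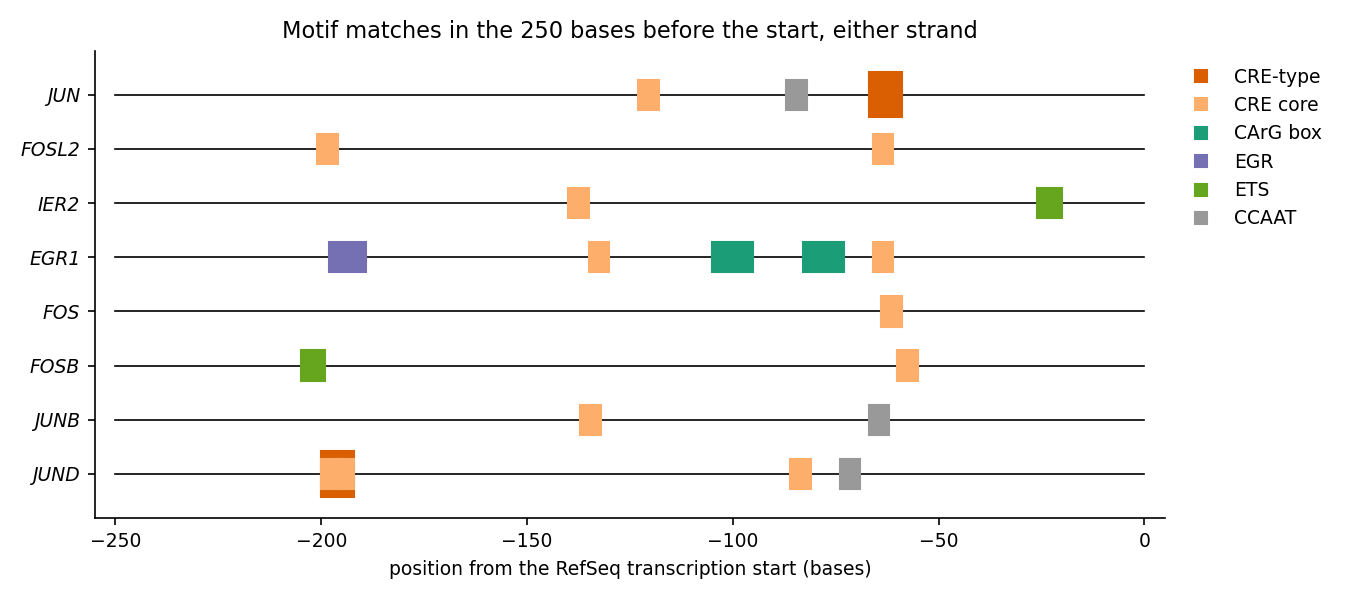
Positions of motif matches in the 250 bases before the RefSeq transcription start of the 8 genes with a promoter entry; the horizontal axis is the distance from the start in bases, and coloured boxes are matches on either strand. Every gene has a CRE core (found in 21.2% of all promoters), and the 2 CArG boxes are in *EGR1*.

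In control cells *JUN* was the most abundant of these genes per transcript length. Across the 4 control libraries the *JUN* level was 153.1 to 159.5 FPKM (counts per length and depth), and *JUND* followed at 22.0 to 27.7 FPKM. *FOSL2* at 13.3 to 18.9 FPKM and *IER2* at 14.8 to 18.9 FPKM overlapped, and *JUNB* had 7.30 to 8.38 FPKM. *FOSL1* at 1.94 to 2.97 FPKM and *EGR1* at 1.56 to 2.52 FPKM also overlapped, and so did *FOS* at 0.27 to 0.79 FPKM and *FOSB* at 0.25 to 0.65 FPKM. *JUN* thus led the JUN family and *FOSL2* the FOS family, and *FOS* and *FOSB* were the lowest of the 9 genes other than *EGR3*. *EGR3* was near absent, with 0 to 4 counts (0 to 0.296 CPM) in any library and 23 counts over all 20. It had no count in any JQAD library, where a count of 0 allows up to 0.238 to 0.273 CPM (exact Poisson 95% interval), and it was left out of every fit by the filter on low counts. The 9 other genes were tested.

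*JUN*, the main dimer partner of FOS proteins and the most abundant of the 10 genes, fell with dCBP and IHK-44. Its level was 510.1 and 509.6 CPM in DMSO at 2 h and 6 h and 491.5 and 507.9 CPM in NT. With IHK-44 it was 51.1 CPM (1 uM, 2 h), 71.6 (1 uM, 6 h), 85.8 (100 nM, 2 h) and 118.5 (100 nM, 6 h). With dCBP the level in the same order was 129.9, 86.7, 141.9 and 108.3 CPM. All 8 of these libraries lay below every control. A485 gave 105.9 CPM at 1 uM and 2 h and 194.9 CPM at 1 uM and 6 h, but 365.9 and 393.7 CPM at 100 nM. JQAD left *JUN* at 490.6, 528.9, 483.9 and 468.9 CPM, overlapping the controls. Over the 4 libraries of a compound and relative to DMSO, the fitted fall was 4.67-fold with dCBP (log2 change -2.22 ± 0.37 SE, edgeR quasi-likelihood test, Benjamini-Hochberg adjusted p = 0.0019) and 6.77-fold with IHK-44 (-2.76 ± 0.37, edgeR adjusted p = 0.00036). With A485 the log2 change was -1.003 ± 0.37 and did not pass (edgeR adjusted p = 0.17), and with JQAD it was -0.04 ± 0.38 (95% interval -0.85 to 0.76).

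*JUNB* and *JUND*, paralogs of *JUN* that pair with the same FOS proteins, did not fall with *JUN* in CPM. *JUNB* had 13.7, 13.3, 14.2 and 12.4 CPM in DMSO and NT (2 h, 6 h, 2 h, 6 h), 17.4, 19.1, 12.7 and 23.8 CPM with dCBP (1 uM 2 h and 6 h, 100 nM 2 h and 6 h) and 16.8, 15.3, 15.4 and 12.4 CPM with IHK-44. *JUND* had 49.6, 41.5, 43.97 and 39.8 CPM in the controls, 62.7, 56.1, 49.4 and 81.8 CPM with dCBP and 49.3, 45.8, 50.5 and 41.6 CPM with IHK-44. In CPM the highest library of both genes was 100 nM dCBP at 6 h, and the IHK-44 and control ranges overlapped for both. In TPM the dCBP and control ranges overlapped: 6.36 to 9.10 and 7.16 to 9.18 for *JUNB*, and 23.2 to 27.3 and 21.6 to 30.2 for *JUND*. With IHK-44 the TPM was 5.17 to 7.83 for *JUNB* and 16.3 to 21.7 for *JUND*. For both genes each IHK-44 library then lay below both controls of its time, so their course with IHK-44 depends on the scale. Over both times neither gene passed for any compound; with dCBP the log2 change was 0.33 ± 0.18 for *JUNB* (edgeR adjusted p = 0.18) and 0.36 ± 0.17 for *JUND* (edgeR adjusted p = 0.13).

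The makeup of the JUN family therefore differed between libraries. Of the summed JUN-family counts per effective length, *JUN* held 81.6 to 84.3% in the controls and 79.1 to 82.8% with JQAD. Its share was 29.9 to 54.8% with IHK-44, 36.2 to 55.8% with dCBP and 48.7 to 81.8% with A485. *JUND* held 11.8 to 14.2% in controls, 34.7 to 48.7% with dCBP and 34.4 to 51.5% with IHK-44. In 5 libraries, among them 1 uM IHK-44 at 2 h and 100 nM dCBP at 6 h, *JUND* held more of the family than *JUN*. These shares are values of single libraries without a test.

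**Figure D2:**
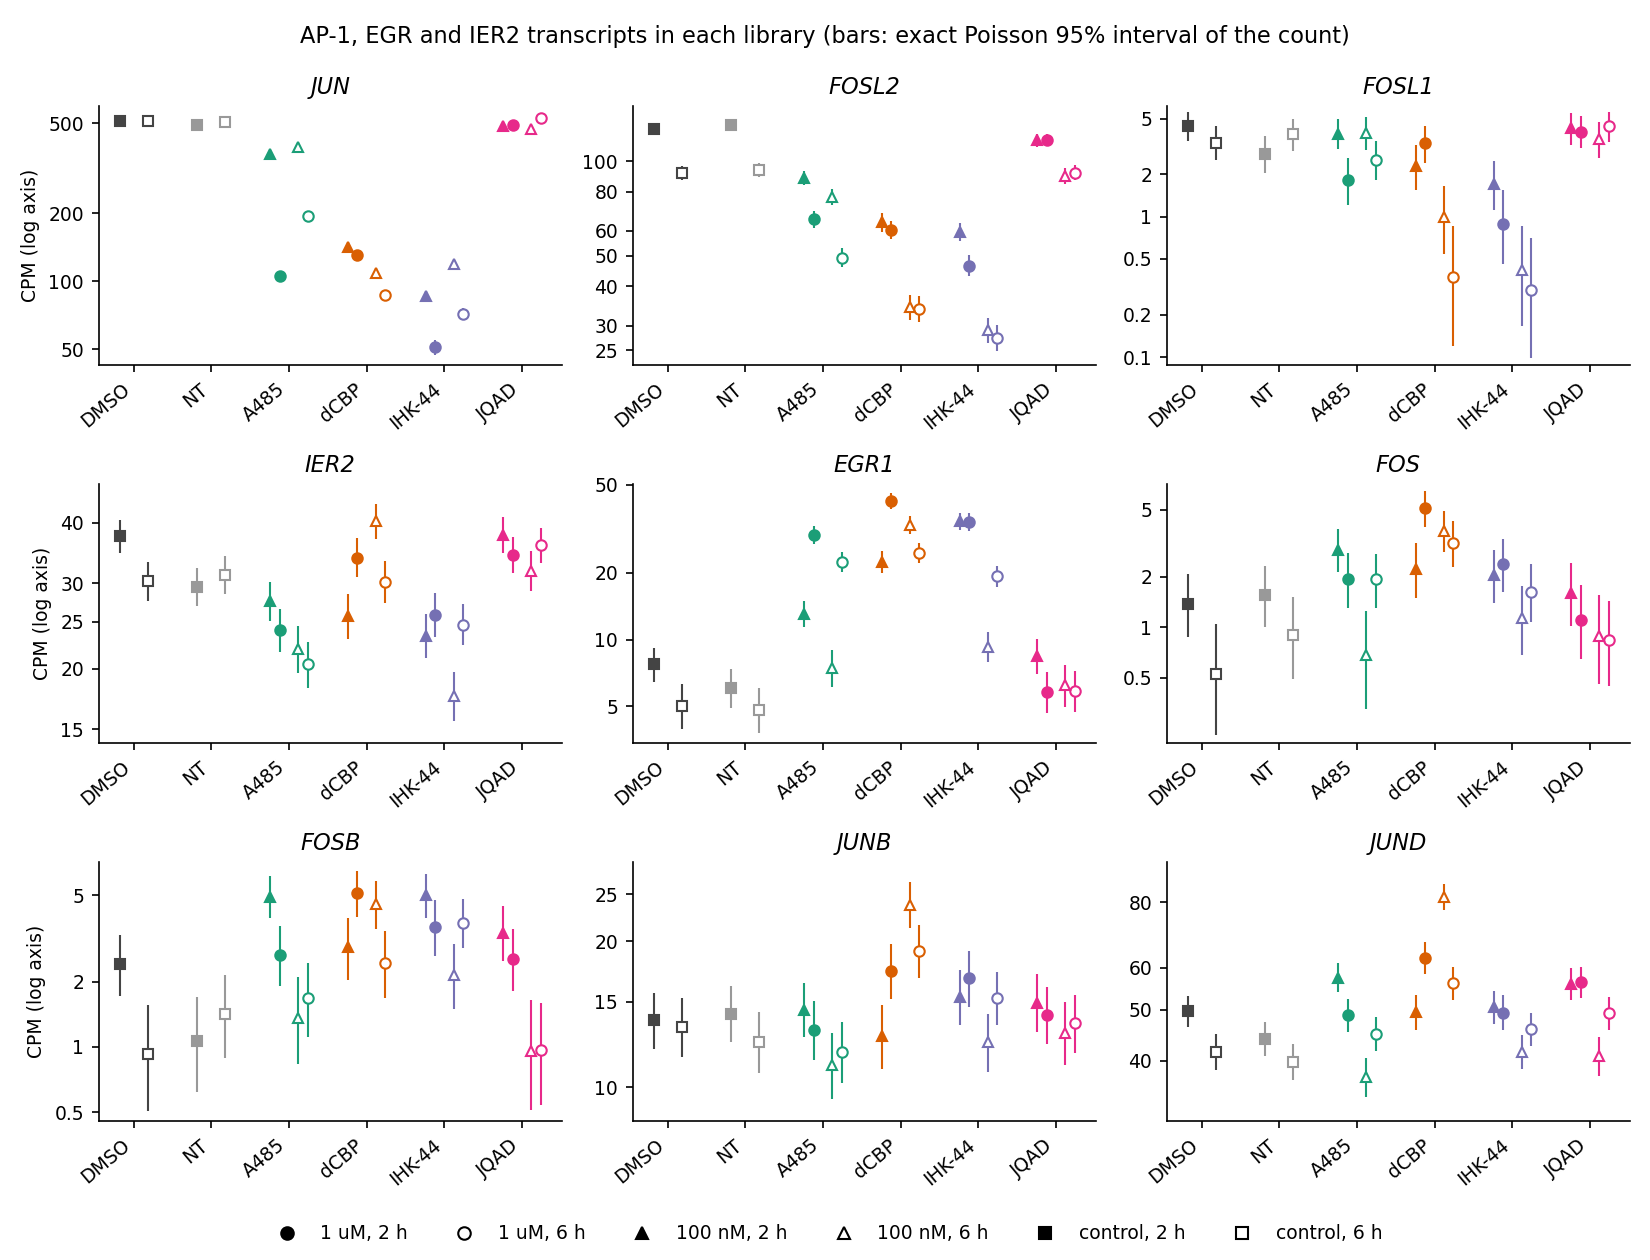
Level of the 9 tested genes in each of the 20 libraries, in CPM on log axes, grouped by agent; filled symbols are 2 h and open symbols 6 h, circles 1 uM, triangles 100 nM and squares controls, with exact Poisson 95% intervals that cover counting error only. *JUN* and *FOSL2* lie below every control with dCBP and IHK-44 while *EGR1* lies above every control, and JQAD ranges overlap the controls.

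*FOSL2*, the FOS-family gene with the highest level in these cells, fell with the same compounds as *JUN*. It had 126.9 CPM in DMSO and 130.6 CPM in NT at 2 h, and 91.9 and 93.7 CPM at 6 h. With dCBP the level was 60.5 and 63.9 CPM at 2 h (1 uM, 100 nM) and 33.9 and 34.3 CPM at 6 h. With IHK-44 it was 46.6 and 59.6 CPM at 2 h and 27.4 and 28.9 CPM at 6 h. These 8 libraries lay below all controls. A485 gave 65.5 and 88.4 CPM at 2 h and 49.4 and 77.0 CPM at 6 h, each below the controls of its time, and JQAD gave 117.1, 116.7, 92.1 and 90.0 CPM. The fitted fall was 2.51-fold with dCBP (log2 -1.33 ± 0.20, edgeR adjusted p = 0.0011) and 2.99-fold with IHK-44 (-1.58 ± 0.20, edgeR adjusted p = 0.00026). With A485 it was -0.69 ± 0.20 on the log2 scale (edgeR adjusted p = 0.10). The falls of *JUN* and *FOSL2* with dCBP and with IHK-44 kept their direction in all 28 alternative fits of each. They passed in all of those that kept both DMSO libraries, including a fit on TPM. Most of the fits without 1 library left out one of neither DMSO nor that compound, which could change these values little.

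*FOSL1*, which encodes the FOS-family protein FRA-1, was a minor FOS-family transcript and fell with IHK-44. It had 4.44, 3.37, 2.81 and 3.86 CPM in DMSO and NT, and 0.89, 0.30, 1.71 and 0.42 CPM with IHK-44 (1 uM 2 h and 6 h, 100 nM 2 h and 6 h), which is 5 to 26 counts. With dCBP it had 3.33, 0.37, 2.28 and 0.99 CPM, so that the 1 uM library at 2 h overlapped the controls and both libraries at 6 h lay far below them. IHK-44 lowered it 5.23-fold in the fit (log2 -2.39 ± 0.55, edgeR adjusted p = 0.012), while dCBP gave -1.33 ± 0.52 (edgeR adjusted p = 0.072). Without the DMSO library at 6 h the IHK-44 value was -2.32 and did not pass (edgeR adjusted p = 0.13).

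*FOS* and *FOSB*, the FOS-family genes known for the fastest response to stimulation, were low in every library, and *FOS* rose with dCBP. It had 1.38, 0.53, 1.56 and 0.90 CPM in DMSO and NT (8 to 25 counts) and 5.10, 3.17, 2.21 and 3.75 CPM with dCBP (30 to 69 counts), with no overlap. The fitted rise with dCBP was 3.62-fold (log2 1.86 ± 0.41, edgeR adjusted p = 0.0078). IHK-44 gave 2.38, 1.62, 2.04 and 1.13 CPM and a log2 change of 0.82 ± 0.42 (edgeR adjusted p = 0.17). *FOSB* had 2.40, 0.93, 1.06 and 1.42 CPM in controls, 5.10, 2.43, 2.87 and 4.53 CPM with dCBP and 3.56, 3.73, 5.01 and 2.14 CPM with IHK-44. Its log2 change was 1.16 ± 0.45 with dCBP and 1.07 ± 0.45 with IHK-44, and neither passed (edgeR adjusted p = 0.069 and 0.10). With A485 *FOSB* had 1.365 to 4.92 CPM and a log2 change of 0.60 ± 0.45 (edgeR adjusted p = 0.47), and with JQAD 0.96 to 3.36 CPM. Without the DMSO library at 6 h, which had the lowest *FOS* level of all, the rise of *FOS* with dCBP was 1.57 and did not pass (edgeR adjusted p = 0.16).

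Within the FOS family, *FOSL2* held 79.6 to 86.3% of the summed counts per effective length in controls and 56.7 to 73.3% with dCBP. The *FOS* share was 1.66 to 3.59% in controls, 8.80 to 21.5% with dCBP and 8.30 to 13.6% with IHK-44, and the *FOSB* share was 1.29 to 2.85%, 6.29 to 13.9% and 10.3 to 16.8%. With either compound these shares of *FOS* and *FOSB* lay above every control. They are values of single libraries without a test, and a lower *FOSL2* level also raises them.

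**Figure D3:**
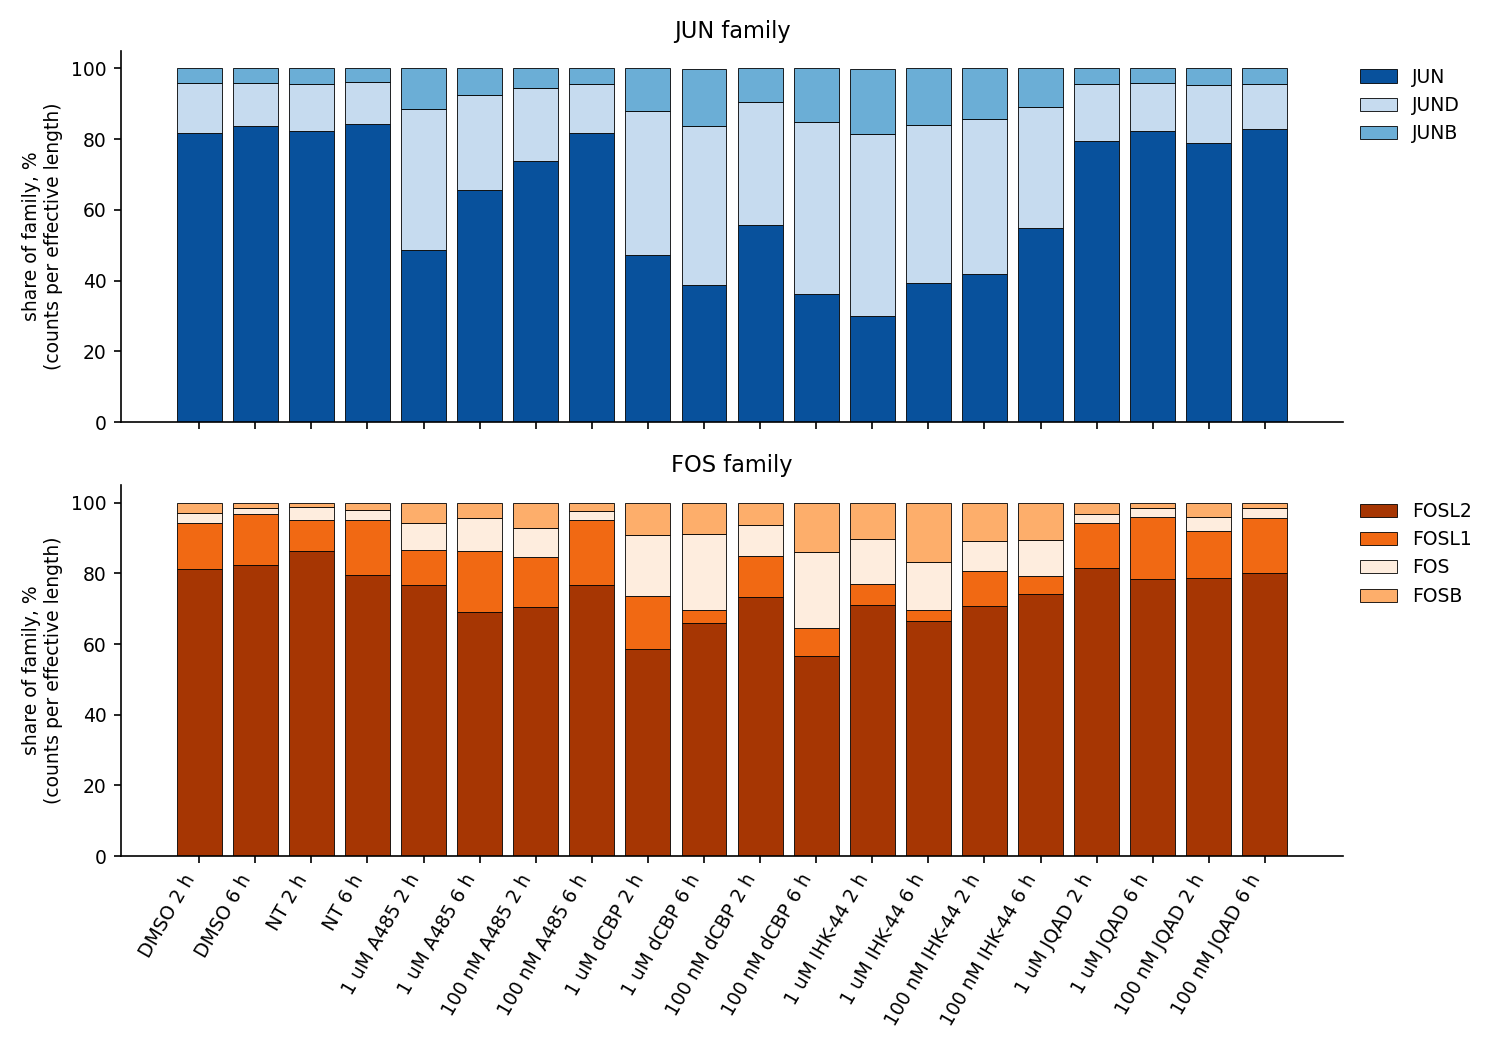
Share of each gene in its family, as percent of the summed counts per effective length, in each of the 20 libraries; each bar is 1 library. *JUN* fills 81.6 to 84.3% of the JUN family in controls and 29.9 to 55.8% with dCBP or IHK-44, and *FOS* with *FOSB* widens in the FOS family with the same compounds.

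*EGR1*, a zinc finger factor that growth factors and stress switch on, rose with dCBP and IHK-44. It had 7.74 and 5.03 CPM in DMSO at 2 h and 6 h and 6.06 and 4.83 CPM in NT. With dCBP the level was 42.1, 24.6, 22.4 and 32.9 CPM (1 uM 2 h and 6 h, 100 nM 2 h and 6 h), and with IHK-44 it was 33.9, 19.3, 34.1 and 9.29 CPM. A485 gave 29.6 and 22.4 CPM at 1 uM, and 13.0 and 7.44 CPM at 100 nM. All the libraries of these compounds except 100 nM A485 at 6 h lay above every control, and JQAD gave 5.80, 5.88, 8.46 and 6.21 CPM. The rise was 4.55-fold with dCBP (log2 2.19 ± 0.46, edgeR adjusted p = 0.0062) and 3.38-fold with IHK-44 (1.76 ± 0.46, edgeR adjusted p = 0.020), and A485 gave 1.43 ± 0.45 (edgeR adjusted p = 0.12). Neither rise passed without the DMSO library at 6 h (dCBP 2.17, edgeR adjusted p = 0.11; IHK-44 1.74, edgeR adjusted p = 0.22), nor did that with IHK-44 without DMSO at 2 h (1.77, edgeR adjusted p = 0.085).

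*IER2*, an immediate early gene for a nuclear protein outside both families, fell modestly with IHK-44. It had 37.5, 30.3, 29.5 and 31.3 CPM in DMSO and NT, and 25.8, 24.7, 23.4 and 17.6 CPM with IHK-44, all below the controls. A485 also lay below all controls, at 24.0, 20.4, 27.6 and 22.0 CPM, while dCBP gave 33.9, 30.2, 25.7 and 40.3 CPM and overlapped them. In TPM this was reversed: controls had 14.63 to 20.63, dCBP lay below them at 10.91 to 12.45, and A485 overlapped them at 12.54 to 16.66. IHK-44 lay below the controls in TPM too, at 6.23 to 10.26. The log2 change was -0.68 ± 0.17 with IHK-44 (1.60-fold lower, edgeR adjusted p = 0.015), -0.60 ± 0.17 with A485 (edgeR adjusted p = 0.093) and -0.16 ± 0.17 with dCBP (edgeR adjusted p = 0.49). The fall with IHK-44 did not pass without DMSO at 2 h (-0.58, edgeR adjusted p = 0.091) or at 6 h (-0.78, edgeR adjusted p = 0.11).

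Counted by compound against DMSO, 4 of the 9 tested genes passed with dCBP (*EGR1* and *FOS* higher, *FOSL2* and *JUN* lower), where 23.7% of 13260 genes did (11.8% higher and 11.8% lower). With IHK-44, 5 passed (*EGR1* higher; *FOSL1*, *FOSL2*, *IER2* and *JUN* lower), against 16.9% of all genes (7.74% higher and 9.21% lower). With A485 none of the 9 passed in edgeR, 5 had an unadjusted p under 0.05, DESeq2 called 2, and edgeR called 0.271% of all genes. JQAD called none (0 at unadjusted p under 0.05, and 0% of all genes), and NT against DMSO also called none (0 at unadjusted p under 0.05, and 0% of all genes). Among fits without 1 library other than DMSO, the count ran from 4 to 7 (without 100 nM dCBP at 2 h) with dCBP. In that fit with 7, more of all genes passed as well. With IHK-44 the count was 5 in each of those fits. Without DMSO at 6 h, which left 1 DMSO library, fewer genes passed with either compound, both among the 9 and over all genes. The same held for IHK-44 without DMSO at 2 h. Calls lost there are thus not particular to these 9 genes. Without DMSO at 6 h, the dCBP value was 2.17 for *EGR1* (from 2.19) and 1.57 for *FOS* (from 1.86).

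**Figure D4:**
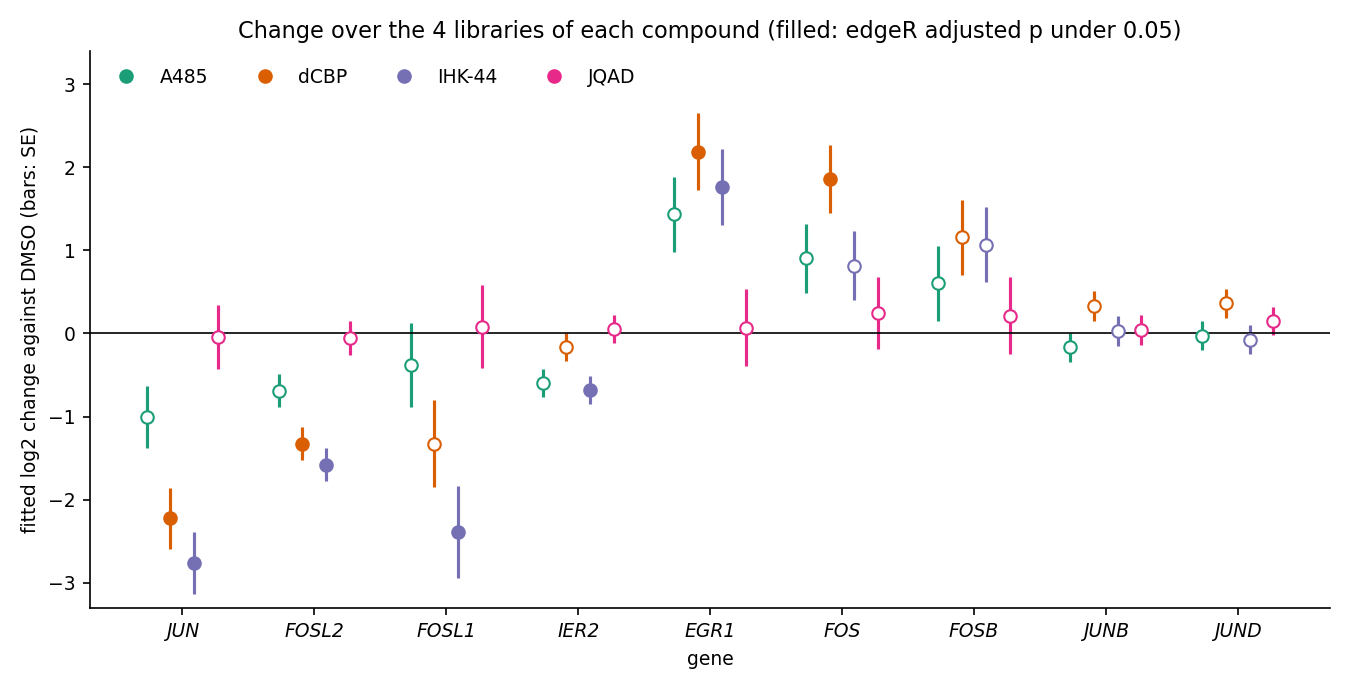
Fitted log2 change against DMSO over the 4 libraries of each compound, with SE bars, for the 9 tested genes; filled points have an edgeR adjusted p under 0.05. *JUN* is at -2.22 with dCBP and -2.76 with IHK-44, *EGR1* at 2.19 and 1.76, and all JQAD points lie near 0.

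The 6 pairs of compounds, each with 1 library at every dose and time, were compared in the fit with time, but not dose, as a term. dCBP differed from JQAD in 6 of the 9 genes (35.3% of all genes) and IHK-44 from JQAD in 5 (32.5% of all genes). *JUN* was lower with dCBP than with JQAD by a log2 difference of -2.18 ± 0.33 (edgeR adjusted p = 0.00037) and with IHK-44 than with JQAD by -2.71 ± 0.34 (edgeR adjusted p = 9.3e-05). *EGR1* was higher with dCBP than with JQAD by 2.12 ± 0.35 (edgeR adjusted p = 0.00072) and with IHK-44 by 1.69 ± 0.35 (edgeR adjusted p = 0.0030). *FOS* (1.61) and *FOSB* (0.94) were also higher with dCBP than with JQAD and *FOSL1* (-1.41) and *FOSL2* (-1.27) lower, while *FOSL1* (-2.47), *FOSL2* (-1.52) and *IER2* (-0.73) were lower with IHK-44 than with JQAD. The *FOSB* difference was close to the threshold (edgeR adjusted p = 0.048) and passed in only 6 of the 20 fits that each left out 1 library (those without either NT library, 100 nM A485 at 2 h, 100 nM dCBP at 2 h, 1 uM IHK-44 at 6 h or 100 nM JQAD at 2 h). Among those fits the lowest *FOSB* value was 0.64, without 100 nM dCBP at 6 h (edgeR adjusted p = 0.17). It was 0.19 on log2(TPM + 1) (limma adjusted p = 0.17), and it did not pass with another scaling (0.91) or without the filter on low counts (0.92) either. The difference of *FOSL1* between dCBP and JQAD did not pass in 3 (without 1 uM dCBP, 100 nM dCBP or 1 uM JQAD at 6 h, with -1.10, -1.26 and -1.27).

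A485 differed from IHK-44 in 2 genes (0.882% of all genes): *JUN* was higher with A485 by 1.76 ± 0.32 (edgeR adjusted p = 0.019) and *FOSL2* by 0.89 ± 0.17 (edgeR adjusted p = 0.022). Both calls were lost without either 100 nM A485 library or without either 1 uM IHK-44 library (*JUN* 1.47 to 1.69, *FOSL2* 0.69 to 0.88), and *FOSL2* also without 100 nM IHK-44 at 6 h (0.85). A485 differed from JQAD in 3 genes (4.91% of all genes): *EGR1* was higher by 1.36 ± 0.35, *FOSL2* lower by -0.63 ± 0.17 and *IER2* lower by -0.65 ± 0.14 (edgeR adjusted p = 0.037, 0.040 and 0.018). None of the 3 passed without 1 uM A485 at 2 h, without 1 uM A485 at 6 h, or without 1 uM JQAD at 6 h. Their values there were 1.07 to 1.41 for *EGR1*, -0.58 to -0.50 for *FOSL2* and -0.63 to -0.59 for *IER2*. *EGR1* and *FOSL2* also failed without any of the other JQAD libraries (1.21 to 1.43 and -0.68 to -0.60). *FOSL2* failed as well without 100 nM A485, 1 uM dCBP or 1 uM IHK-44 at 2 h or 100 nM IHK-44 at 6 h (-0.65 to -0.63). On log2(TPM + 1) neither *FOSL2* (-0.34, limma adjusted p = 0.11) nor *IER2* (-0.34, limma adjusted p = 0.055) passed.

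With dose and time together as a block in the 16 treated libraries, a fit added after seeing the data, 1 gene differed between A485 and IHK-44 (0.261% of all genes) and 1 between A485 and JQAD (3.01%). *JUN* stayed higher with A485 than with IHK-44 (1.70, edgeR adjusted p = 0.031) and *IER2* lower with A485 than with JQAD (-0.65, edgeR adjusted p = 0.042). *FOSL2* did not pass against IHK-44 (0.89, edgeR adjusted p = 0.053) or JQAD (-0.65, edgeR adjusted p = 0.052), nor did *EGR1* against JQAD (1.28, edgeR adjusted p = 0.073). In the same fit 5 genes differed between dCBP and JQAD (32.1% of all genes), without *FOSB* (0.97, edgeR adjusted p = 0.052), and 5 between IHK-44 and JQAD (29.0%).

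Between A485 and dCBP no gene passed in edgeR (7 at unadjusted p under 0.05, 3 in DESeq2, and 0.724% of all genes in edgeR), but 6 did without 100 nM dCBP at 2 h and 2 without 1 uM A485 at 2 h. The largest difference was in *JUN*, higher with A485 by 1.22 (95% interval 0.54 to 1.90, edgeR adjusted p = 0.074). Between dCBP and IHK-44 none passed either (3 at unadjusted p under 0.05, 0 in DESeq2, and 0% of all genes in edgeR). The intervals were wide: dCBP minus IHK-44 was 1.04 for *FOS* (95% interval 0.41 to 1.67), 0.52 for *IER2* (0.23 to 0.82), 0.44 for *JUND* (0.14 to 0.73) and 0.53 for *JUN* (-0.14 to 1.21). These values do not show that the compounds act alike.

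By time, each compound was set against DMSO and NT of the same time as 1 group of 2 libraries. At 2 h *EGR1* was already higher and *JUN* and *FOSL2* lower with dCBP (3 of 9 genes, against 5.63% of all) and with IHK-44 (3 of 9, against 4.88%). *JUN* was at -1.93 ± 0.43 with dCBP (edgeR adjusted p = 0.018) and -2.91 ± 0.45 with IHK-44 (edgeR adjusted p = 0.0022) at 2 h. *EGR1* was at 2.17 ± 0.46 and 2.25 ± 0.45 (edgeR adjusted p = 0.014 and 0.0090), and *FOSL2* at -1.10 ± 0.18 and -1.32 ± 0.18 (edgeR adjusted p = 0.0059 and 0.0013). These 2 h calls rest on 2 libraries a group. Without 1 uM dCBP at 2 h none of the 3 genes passed (*EGR1* 1.63, *FOSL2* -1.07, *JUN* -1.88), and without 1 uM IHK-44 at 2 h none passed either (*EGR1* 2.27, *FOSL2* -1.14, *JUN* -2.58). Leaving out DMSO at 2 h ended the *EGR1* calls (2.35 with dCBP, 2.43 with IHK-44) and the *JUN* call with dCBP (-1.91). Leaving out NT at 2 h ended the *EGR1* calls (1.99 and 2.06) and, with dCBP, those of *JUN* and *FOSL2* (-1.98 and -1.10). *JUN* with dCBP was lost without 100 nM dCBP at 2 h (-2.01), and *EGR1* with IHK-44 without 100 nM IHK-44 at 2 h (2.21). With A485 no gene passed at 2 h in edgeR (5 at unadjusted p under 0.05, 1 in DESeq2, 0.0452% of all genes). Without 100 nM A485 at 2 h 3 genes passed with A485, and without either A485 library at 6 h 2 did. JQAD called none at 2 h (0 at unadjusted p under 0.05, 0% of all genes).

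At 6 h dCBP changed 8 of the 9 genes (45.5% of all genes), all but *IER2*. *EGR1* (2.39 ± 0.48) and *FOS* (2.11 ± 0.48) rose and *JUN* (-2.54 ± 0.44), *FOSL2* (-1.60 ± 0.19) and *FOSL1* (-2.54 ± 0.50) fell in every alternative fit. *FOSB* (1.42 ± 0.49), *JUND* (0.61 ± 0.17) and *JUNB* (0.58 ± 0.16) also passed (edgeR adjusted p = 0.026, 0.0074 and 0.0067). Without the 100 nM dCBP library at 6 h these 3 were at 0.87, 0.29 and 0.39 and did not pass, nor did they on TPM. Leaving out NT at 6 h also ended these 3 calls (1.76, 0.58 and 0.54), and leaving out DMSO at 6 h that of *FOSB* (1.15). With IHK-44, 5 genes passed at 6 h (42.1% of all genes): *EGR1* at 1.36 ± 0.49, *FOSL1* at -3.47 ± 0.54, *FOSL2* at -1.89 ± 0.19, *IER2* at -0.72 ± 0.19 and *JUN* at -2.58 ± 0.44. *EGR1* did not pass without 1 uM IHK-44 at 6 h (0.76), DMSO at 6 h (1.40) or NT at 6 h (1.34), or on TPM, and *IER2* did not without 100 nM IHK-44 at 6 h (-0.51).

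With A485, 3 genes passed at 6 h (16.6% of all genes): *EGR1* at 1.501 ± 0.49, *FOSL2* at -0.63 ± 0.18 and *IER2* at -0.63 ± 0.19 (edgeR adjusted p = 0.045, 0.027 and 0.032). Without 1 uM A485 at 6 h they were at 0.55, -0.31 and -0.53 and did not pass, nor did any without DMSO at 6 h (1.54, -0.64 and -0.64) or NT at 6 h (1.48, -0.61 and -0.59). On log2(TPM + 1) *FOSL2* was at -0.22 and *IER2* at -0.19, and neither passed (limma adjusted p = 0.38 and 0.40). *EGR1* also failed without DMSO or NT at 2 h, either IHK-44 library at 2 h or any JQAD library (1.49 to 1.51). JQAD called none at 6 h (0 at unadjusted p under 0.05, 0% of all genes).

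**Figure D5:**
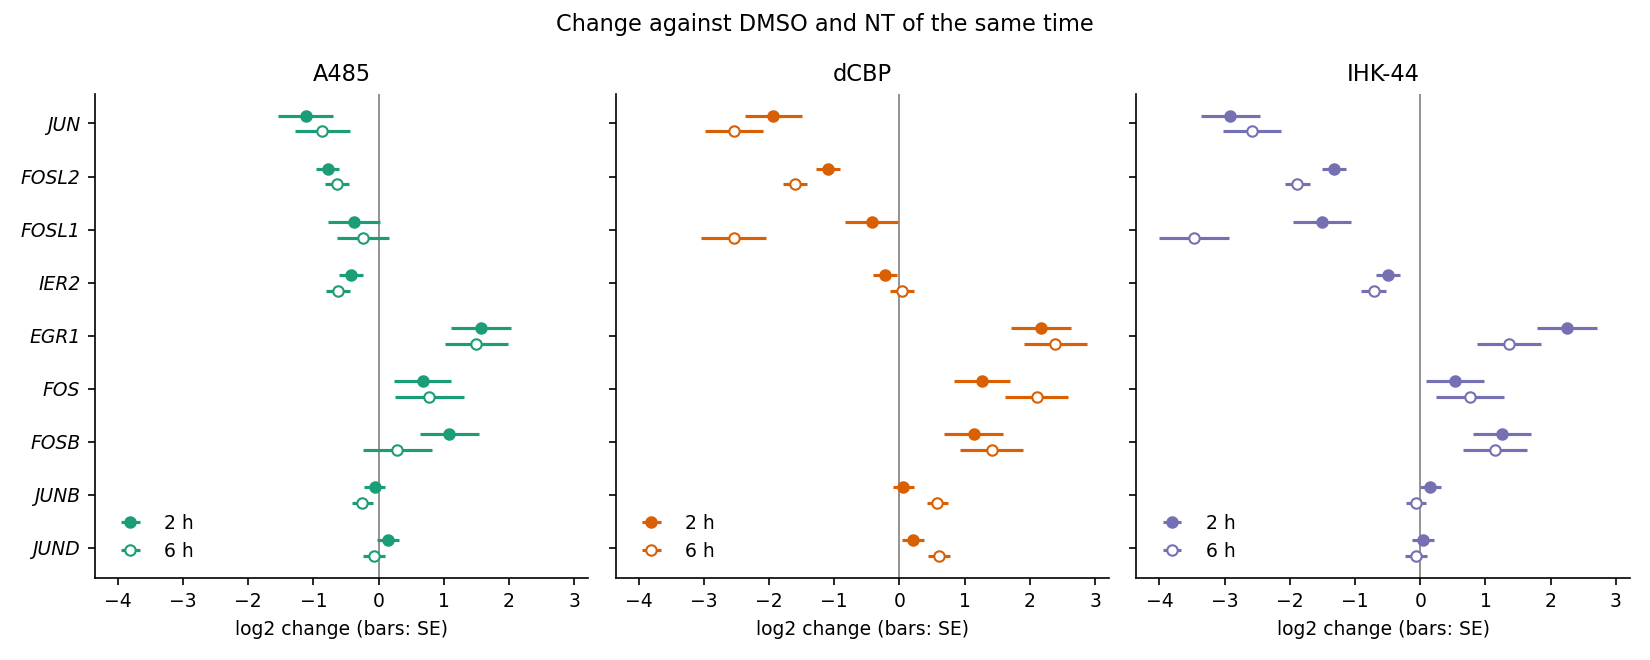
Fitted log2 change against DMSO and NT of the same time for 9 genes, at 2 h (filled) and 6 h (open), with SE bars, for A485, dCBP and IHK-44. *JUN*, *FOSL2* and *EGR1* are away from 0 at both times with dCBP and IHK-44, and *FOSL1* lies farther below 0 at 6 h than at 2 h with both.

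The change between 2 h and 6 h was tested as an interaction, and no gene passed in edgeR with any compound. With dCBP 2 genes had an unadjusted p under 0.05 (9.06% of all genes passed, 1 member in DESeq2), and for IHK-44 the number was 2 (9.89%). A485 had 0 (0.00754%) and JQAD 0 (0%). Without 1 uM dCBP at 6 h the dCBP count was 2, and it was 1 without 100 nM dCBP at 6 h or any A485 library. *FOSL1* came nearest, with a log2 difference of -2.12 ± 0.65 with dCBP (edgeR adjusted p = 0.053) and -1.97 ± 0.73 with IHK-44 (edgeR adjusted p = 0.11). The fall of *JUN* did not show a detectable difference between times with IHK-44 (0.33, 95% interval -0.94 to 1.60) or dCBP (-0.61, 95% interval -1.87 to 0.66). In the controls no gene passed between 6 h and 2 h (1 at unadjusted p under 0.05, 0.0754% of all genes), and *FOSL2* was at -0.47 ± 0.18 (edgeR adjusted p = 0.44).

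Dose was compared within compound and time over the 16 treated libraries. With A485, *JUN* was lower at 1 uM than at 100 nM by a log2 difference of -1.47 ± 0.15 (edgeR adjusted p = 0.0023) and *FOSL2* by -0.61 ± 0.12 (edgeR adjusted p = 0.046), 2 of 9 genes against 0.929% of all. The *JUN* difference passed in all 16 fits that each left out 1 library, and that of *FOSL2* in the 4 without a dCBP library; without any one of the other 12 it did not pass (-0.74 to -0.48). *EGR1* was at 1.31 ± 0.31 (edgeR adjusted p = 0.093). No gene passed between doses of dCBP (0 at unadjusted p under 0.05, 0% of all genes), IHK-44 (1 at unadjusted p under 0.05, 1 in DESeq2, 0.107% of all genes) or JQAD (0, 0%). *JUN* differed between doses by -0.77 with IHK-44 (95% interval -1.11 to -0.43, edgeR adjusted p = 0.29) and by -0.25 with dCBP (95% interval -0.58 to 0.09).

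Single libraries were also set against the DMSO library of their time after log2(CPM + 1), a scale that shrinks changes of weakly expressed genes. Of 144 pairs of a gene and a treated library, 23 were at least 2-fold lower (10 of *JUN*, 7 of *FOSL2* and 6 of *FOSL1*), where 2.36% of such pairs over all genes were. At least 2-fold higher were 14 (9 of *EGR1*, 3 of *FOS* and 2 of *FOSB*), where 1.93% over all genes were. Against NT the numbers were 23 and 19.

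Across the 20 libraries, which share controls, compounds and cell line, *FOSL1* and *FOSL2* varied together (Pearson r = 0.91 of log2(CPM + 1)), as did *JUN* and *FOSL2* (r = 0.85), *FOS* and *EGR1* (r = 0.84) and *JUNB* and *JUND* (r = 0.84), while *JUN* and *EGR1* ran opposite (r = -0.88). The gene outside the 10 most like *JUN* was *FOXA2* (r = 0.98), followed by *SPRY1* and *CITED2* (r = 0.98 each). *DYRK2* (r = 0.99), *ATF3* and *SASH1* (r = 0.98 each) were most like *FOSL2*, and *FBXL12* (r = 0.93), *ZNF543* and *SRSF6* (r = 0.92 each) most like *EGR1*. *PLEKHO1*, *FAM89A* and *TRIM16* (r = 0.93 each) were most like *FOSL1*.

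Most other immediate early genes that were called fell with dCBP and IHK-44. The gene lists here and below were chosen with earlier results of these data known, so their counts are no independent test. Of 25 tested, 17 fell and 1 rose with dCBP (median log2 change -0.99, against 0.05 over all genes), where 11.8% of all genes fell and 11.8% rose. With IHK-44, 16 fell and none rose (-1.13, against 0.04), where 9.21% of all genes fell and 7.74% rose. With A485, 3 fell (-0.69, against 0.01), and with JQAD 0 passed in edgeR. *PLK2*, a polo-like kinase, fell by 3.08 on the log2 scale with dCBP and by 3.06 with IHK-44 (edgeR adjusted p = 0.0011 and 0.00063). *BTG2*, an antiproliferative gene, fell by 1.92 and by 2.36 with the same compounds, and by 1.73 with A485. *ZFP36L2*, an RNA-binding protein that promotes mRNA decay, fell by 0.93, by 1.07 and by 0.63 in the same order, and *SGK1*, a kinase, fell by 1.33 with dCBP and by 1.51 with IHK-44. Without DMSO at 6 h, 9 of the 25 passed as lower for dCBP, 10 for IHK-44 and 0 for A485, and none as higher; without DMSO at 2 h these numbers were 14, 17 and 0. The 1 gene that rose, named after its value was seen, was *NR4A1*, an orphan nuclear receptor, at 0.68 ± 0.20 with dCBP (edgeR adjusted p = 0.027), and it did not pass without DMSO at 2 h or 6 h or without 100 nM dCBP at 6 h.

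Of 9 tested AP-1 partners outside the JUN and FOS families, *ATF3*, a stress-induced leucine zipper factor, fell by 1.90 on the log2 scale with dCBP and by 2.05 with IHK-44 (edgeR adjusted p = 0.0046 and 0.0029). It was the only one of them called with dCBP, and *MAFG*, named after its value was seen, was the second with IHK-44 (-0.48), where 23.7% and 16.9% of all genes were called. Of 15 tested targets of AP-1 and EGR1, 7 fell and 1 rose with dCBP (11.8% of all genes fell and 11.8% rose) and 5 fell with IHK-44 (9.21% of all genes fell). Their median log2 change was -0.62 with dCBP and -0.52 with IHK-44, against 0.05 and 0.04 over all genes. *PLAU*, which encodes urokinase, was at -1.67 and -1.43, *CCND1*, which encodes cyclin D1, at -1.43 and -1.35, and *THBS1*, which encodes thrombospondin, at -0.99 and -1.07. The gene that rose, named after its value was seen, was *PLAUR*, the urokinase receptor (0.72). Without DMSO at 6 h none of these partners and targets passed, and the number of targets that fell with dCBP was 3 without 100 nM dCBP at 6 h and 4 without DMSO at 2 h.

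Factors and kinases known to act on these genes were tested as well, and are to be read against the 23.7% of all genes called with dCBP and 16.9% with IHK-44. Of SRF and 5 cofactors only *ELK3* was called (-0.67 with dCBP, -0.47 with IHK-44). Of CREB1, ATF1 and 14 kinases, *MAPK14* (0.37) and *RPS6KA1* (0.78) rose and *RPS6KA3* (-0.46) fell with dCBP, and *MAPK14* (0.33) alone was called with IHK-44. The 3 and 1 of 16 are smaller shares than those over all genes. *NAB1*, a corepressor of EGR proteins, fell by 0.34 with dCBP and by 0.32 with IHK-44, and *NAB2*, its paralog, rose with dCBP (0.54). Without DMSO at 6 h none of these was called. None of 4 genes for the turnover of AP-1 proteins was called.

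The cells were detached with trypsin before lysis, and heat shock genes were followed as a sign of handling. Of 6 such genes, *HSPA1A* (0.79), *HSPA1B* (1.05) and *DNAJB1* (0.46) rose with dCBP and *DNAJB1* (0.38) with IHK-44, where 11.8% and 7.74% of all genes rose. Their summed level was 2621 to 3056 CPM in controls, 2697 to 3700 CPM with dCBP and 2773 to 3678 CPM with IHK-44. Without DMSO at 6 h none of the 6 was called. The part of handling in the rises of *EGR1* and *FOS* was not tested.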

How the data were processed

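RNA-seq of 20 RH4 libraries was used (1 library a condition); its ChIP-seq (11) and ChRO-seq (1) samples were not used here. Per the submitters' processing notes, STAR 2.5.3a, RSEM 1.3.3 and the build hg38 were named, with no role or order. The deposited tables hold expected counts estimated by the authors, with TPM and FPKM as deposited, for coding genes only. CPM, as deposited, scales each library's expected counts to an equal coding total, which was checked on the values.

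After rounding, the expected counts went into edgeR 4.0.16 (R 4.3.3, quasi-likelihood test, TMM, filterByExpr; 13260 genes, or 13137 for dose), with Benjamini-Hochberg adjustment over all genes tested within each contrast and a threshold of 0.05. 3 designs were fitted: compound with time as a term (13 residual degrees of freedom), compound by time with DMSO and NT pooled (10), and dose within compound and time. DESeq2 1.42.0, limma 3.58.1, other scaling, filters and controls, and leaving out each library were alternatives; limma for compound by time, pairs of compounds with dose and time as a block (9 residual degrees of freedom), and the gene lists without DMSO at 2 h or 6 h or 100 nM dCBP at 6 h, were added after seeing the data. The fits were also run on simulated counts with known changes. These changes were equal in every changed library, so a spread of response with dose and time within a compound was not covered. Poisson intervals cover counting error only.

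The 10 genes and all gene lists were chosen with earlier results of these data known. All 10 genes are named; from each list at most the 4 genes with the smallest p for dCBP and IHK-44 together; and the 3 genes most like each member by Pearson r over genes with a mean of at least 1 CPM. Paralogs and overlapping genes can share reads in RSEM's estimates.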

Additional observations from a re-analysis of the deposited data

Results flagged for a closer look

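The responses of the 9 tested genes differed between compounds in direct tests (edgeR quasi-likelihood, Benjamini-Hochberg adjusted over all genes). Between dCBP and JQAD 6 genes differed (35.3% of all genes) and between IHK-44 and JQAD 5 (32.5%). Between A485 and JQAD 3 differed (4.91%) and between A485 and IHK-44 2 (0.882%). With dose and time as a block these last 2 counts were 1 each. JQAD was the compound whose libraries overlapped the controls for *JUN*, *FOSL2* and *EGR1*, and the 4 libraries of each compound differ in dose and time.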

How the results depend on the processing

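Of 1272 refitted values of the called genes, 1150 kept their direction and their side of the threshold, 122 kept their direction but did not pass, and none reversed. Many of these refits left out 1 library that was in neither group compared, which could change the fitted value little. The tally is thus a weak check of direction. Counts of genes called against DMSO became 2 in DESeq2, 3 with pooled controls and 1 with limma on TPM for A485 (from 0), and 7 with pooled controls for dCBP (from 4). Calls over all genes rose in each of these fits too. For A485 they went from 36 to 385 in DESeq2 and 343 on TPM, and higher still with pooled controls. For A485 against dCBP (from 0) they became 3 in DESeq2 and 4 with limma on TPM, and for A485 against IHK-44 (from 2) 7 on TPM. That TPM fit called 86.7% and 89.7% of all 12174 genes it tested in these 2 comparisons. With dose and time as a block, A485 against IHK-44 gave 1 and A485 against JQAD 1 (from 3). At 2 h the counts became 1 in DESeq2 and 2 without a filter for A485 (from 0). They became 5 on TPM for dCBP and for IHK-44 (from 3), where TPM called 26.9% and 28.0% of all genes. At 6 h, TPM gave 1 for A485 (from 3; 31.6% of all genes) and 5 for dCBP (from 8; 31.1%). The time interaction with dCBP and the dose contrast of IHK-44 (from 0) each became 1 in DESeq2 and 1 without a filter. Single ratios at least 2-fold higher (from 14) became 22 with a pseudocount of 0.1, and 26 passed at 1.5-fold; those at least 2-fold lower (23) stayed between 23 and 31 in the 4 settings tried.

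Leaving out 1 library gave 0 to 1 genes with A485, 2 to 7 with dCBP and 2 to 5 with IHK-44 against DMSO. It gave 0 to 6 for A485 against dCBP, 0 to 3 for A485 against IHK-44, 0 to 4 for A485 against JQAD and 4 to 8 for dCBP against JQAD. At 2 h it gave 0 to 3 with A485, 0 to 4 with dCBP and 0 to 4 with IHK-44, and at 6 h 0 to 4 with A485 and 5 to 8 with dCBP. The dCBP interaction gave 0 to 2 and the A485 dose contrast 1 to 3. The cause of these changes was not tested. On TPM the median gene of a library lay between -0.45 and 0.42 (log2) from DMSO. With 5 to 82 counts a library, *FOS*, *FOSB* and *FOSL1* were limited by depth. Pairing by replicate number could not be used, since each condition has 1 library and the labels carry no replicate numbers; the compounds share doses and times, which is the block above.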
